A study of Mus musculus with 9 samples.

Results

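The thin filament genes examined here are 10 listed genes of cardiac muscle: the troponin genes Tnnt2, Tnni3, Tnnc1, Tnni1 and Tnnt1, the tropomyosin genes Tpm1 and Tpm2, the cardiac actin gene Actc1, and the pointed-end genes Lmod2 and Tmod1. They were taken by symbol from a table of read counts with 23457 rows, and all 10 had a row. Polyadenylated RNA was sequenced from ventricular apices of 9 adult mice on a C57BL/6J background, 5 wild type (WT) and 4 labelled as germline Parkin knockouts (KO); the tissue label itself reads whole heart. Parkin is a ubiquitin ligase that marks damaged mitochondria for removal, and a germline knockout lacks it in every cell of the animal. Each library came from 1 heart. The study used the mouse hearts beside work on the Drosophila heart tube, and the comparison addresses how cardiac transcripts differ with the genotype.

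The thin filament of the sarcomere is a polymer of actin with tropomyosin lying along it and a troponin complex at regular spacing. Troponin C binds calcium, troponin I holds the filament in the inhibited state, and troponin T ties the complex to tropomyosin, so that calcium moves tropomyosin and exposes the sites on actin to which myosin binds. Around birth the heart replaces slow skeletal troponin I (Tnni1) with cardiac troponin I (Tnni3), and tropomodulin 1 and leiomodin 2 act at the pointed end of the filament, where tropomodulin caps it and leiomodin promotes its elongation.

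At the pointed end of the filament, Lmod2 RNA was 2.31-fold lower and Tmod1 RNA 1.61-fold higher in the labelled knockout hearts, and these 2 genes kept their direction and passed the test under every setting tried. Tnni3 and Tnnc1, the inhibitory and calcium-binding subunits of cardiac troponin, were 1.55-fold and 1.53-fold higher, but neither difference was detected once trends with the GC content and length of transcripts were removed. Tnnt2, Tpm1 and Actc1, the most abundant of the set per length in wild type, did not pass the test. Tnni1 had 1 to 4 reads in each heart, so both groups carried the adult form of troponin I almost exclusively.

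Total assigned reads lay between 4415183 and 20827699 for wild type and between 11637206 and 15777844 for labelled knockouts. Transcripts encoded by the mitochondrial genome made up 47.0% ± 11.3 of the reads of wild-type hearts and 13.3% ± 2.49 of those of labelled knockouts (mean ± SD over 5 and 4 hearts, as for all values with ± unless SE is named). The levels below are therefore given as CPM, the read count relative to a library size scaled by TMM, which is meant to offset shifts of this kind. Of the reads that remained without these transcripts and without Rn45s, a ribosomal RNA precursor, the 10 genes together took 5.19% ± 0.081 in wild type and 5.20% ± 0.178 in the labelled knockouts, with ranges of 5.11% to 5.30% and 4.95% to 5.36% that overlap. Relative to the mean of each gene over all hearts, expression also followed transcript GC content. The slopes were -0.38 to -0.18 log2 units per 10 percentage points of GC in wild type and 0.16 to 0.63 in the labelled knockouts. They describe how hearts differ from that mean, so their opposite signs do not show that expression itself falls or rises with GC. Fold changes are therefore given again after removal of the GC and length trends, which also takes away any difference between the genotypes that follows GC content or length. A list of 8 ventricular cardiomyocyte markers had a summed level of 52157 to 58954 CPM in wild type and 74589 to 83731 CPM in the labelled knockouts. Myh6 took the largest part, with means of 28586 and 41898 CPM. No other heart tissue was compared, so the sum does not check the ventricular label. Markers of other cell types are given after the results. Within bulk tissue, fewer cells of a type and less RNA per cell cannot be told apart, and this holds for all values that follow.

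Of the 10 genes, 9 had enough reads to be tested with edgeR's quasi-likelihood test with Benjamini-Hochberg adjustment over 12640 genes. At an adjusted p under 0.05, 4 of the 9 were called (44.4%), against 51.4% of all genes tested. Tmod1, Tnni3 and Tnnc1 were higher (33.3%, against 26.2% of all genes), Lmod2 was lower (11.1%, against 25.2%), and 5 were not called. The same 4 genes had CPM values that did not overlap between the groups, where 41.6% of all tested genes did not overlap, 22.3% higher and 19.3% lower. The share of the 9 that was called is thus near that of genes at large. Their median log2 fold change was 0.29, against -0.0059 over all tested genes. With mitochondrially encoded genes and Rn45s left out before scaling the same 4 genes were called, Lmod2 at a log2 fold change of -1.20, Tmod1 at 0.70, Tnni3 at 0.64 and Tnnc1 at 0.63. With GC and length trends removed, Tmod1 alone was called higher and Lmod2 alone lower (22.2% of the 9), against 38.4% of 12542 genes, 18.6% higher and 19.8% lower, and the median of the 9 was -0.0063.

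**Figure D1:**
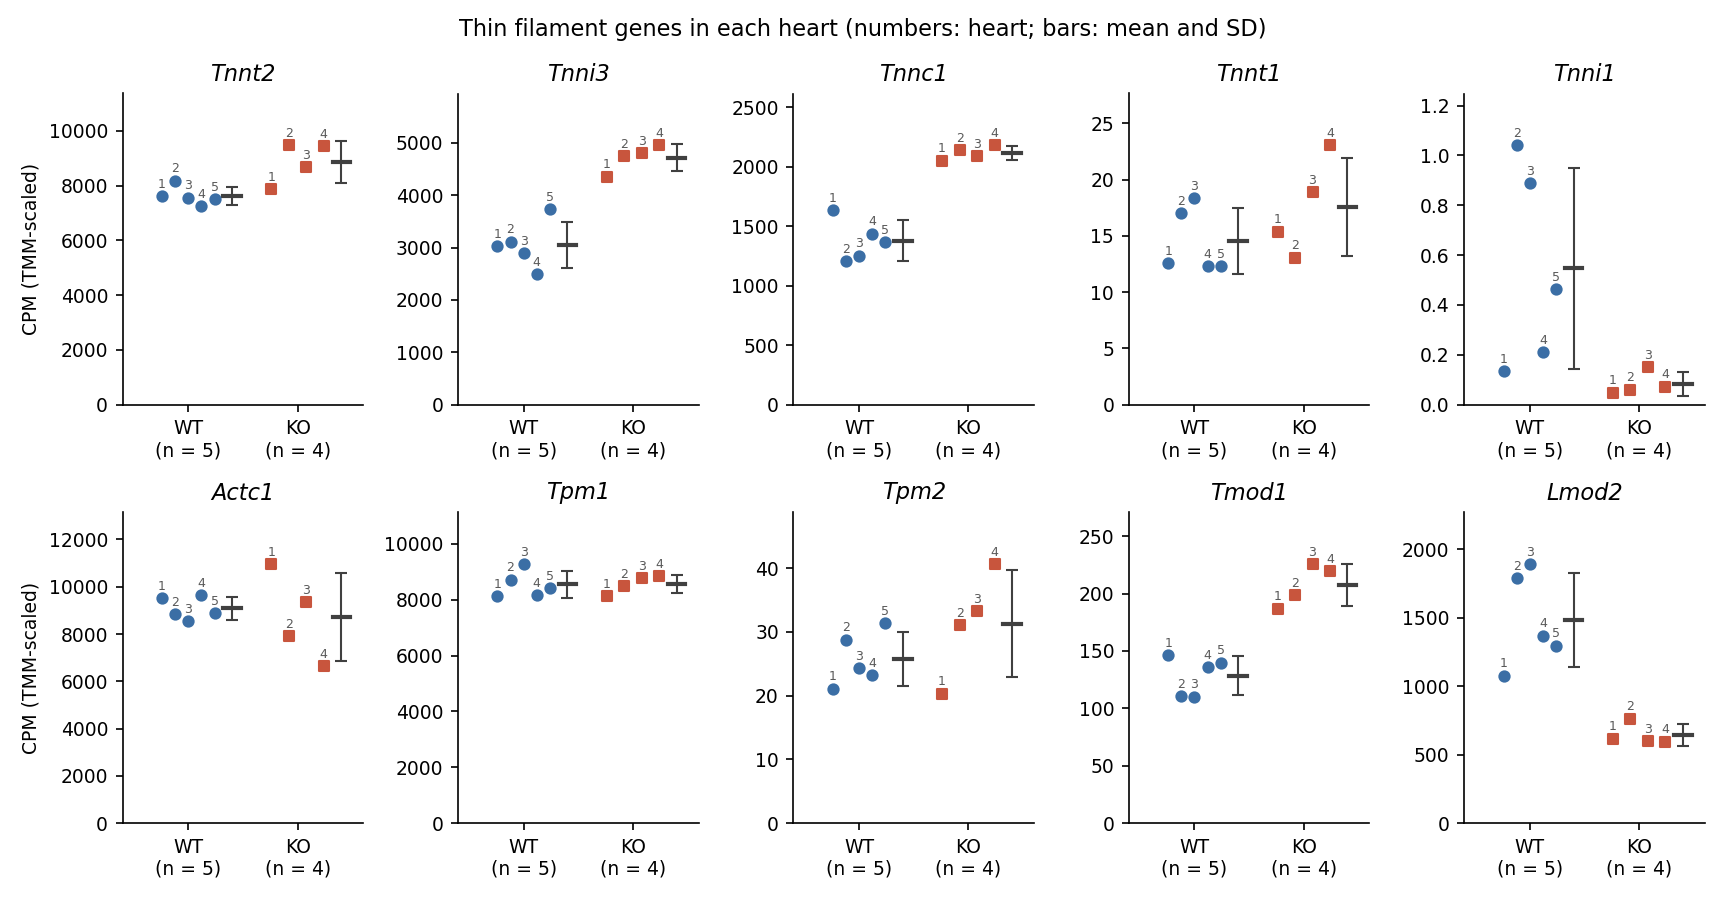
Level of each of the 10 genes in each heart, in CPM after TMM scaling, each panel with its own linear axis starting at 0. Circles are the 5 wild-type hearts and squares the 4 labelled knockouts, numbers are heart numbers, and bars give the mean and SD. Tnni3, Tnnc1 and Tmod1 lie higher and Lmod2 lower in the labelled knockouts without overlap, while the remaining tested genes overlap.

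Promoter sequence of 5 of the genes is shown for the pair that moved in opposite directions (Lmod2 and Tmod1), for the cardiac actin gene, and for Tnni3 and its neighbour Tnnt1. Each is the stretch of 250 bases before the start of a RefSeq transcript on GRCm38.p6, the assembly that mm10 names, written 5′ to 3′ on the strand of the gene. Capitals mark a match to a CArG box (the binding motif of serum response factor), to CATTCC (a motif of TEAD factors) or to TATAAA, and no capitals mean that none of these nor a MEF2 site was found. Lmod2 lies at chr6:24597521-24597770 on the plus strand, Tmod1 at chr4:46038972-46039221 on the plus strand, Actc1 at chr2:114052876-114053125 on the minus strand, Tnni3 at chr7:4522529-4522778 on the minus strand, and Tnnt1 at chr7:4515976-4516225 on the minus strand. The transcript start used is not always the outermost of the gene. The Tmod1 window lies inside the span of its gene (chr4:46038940-46116032). The Tnni3 window lies partly inside the span of its gene (chr7:4518305-4522718).
Lmod2: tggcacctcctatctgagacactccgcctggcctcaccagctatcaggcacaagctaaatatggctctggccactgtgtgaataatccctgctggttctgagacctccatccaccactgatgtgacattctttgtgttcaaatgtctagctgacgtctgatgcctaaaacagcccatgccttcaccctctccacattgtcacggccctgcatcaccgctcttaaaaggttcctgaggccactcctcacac
Tmod1: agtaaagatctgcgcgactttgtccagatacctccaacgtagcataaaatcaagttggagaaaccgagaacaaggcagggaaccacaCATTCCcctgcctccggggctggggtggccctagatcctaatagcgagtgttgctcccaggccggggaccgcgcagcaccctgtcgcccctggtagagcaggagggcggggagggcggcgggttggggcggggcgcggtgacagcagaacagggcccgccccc
Actc1: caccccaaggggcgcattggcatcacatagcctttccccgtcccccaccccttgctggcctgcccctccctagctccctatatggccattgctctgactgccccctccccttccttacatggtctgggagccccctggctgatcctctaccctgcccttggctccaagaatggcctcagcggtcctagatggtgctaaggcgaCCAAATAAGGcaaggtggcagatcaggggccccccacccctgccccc
Tnni3: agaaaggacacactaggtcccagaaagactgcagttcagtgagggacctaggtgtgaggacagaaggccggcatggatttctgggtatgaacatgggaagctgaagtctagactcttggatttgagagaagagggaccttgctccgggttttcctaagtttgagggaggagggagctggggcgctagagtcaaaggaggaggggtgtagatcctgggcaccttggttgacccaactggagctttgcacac
Tnnt1: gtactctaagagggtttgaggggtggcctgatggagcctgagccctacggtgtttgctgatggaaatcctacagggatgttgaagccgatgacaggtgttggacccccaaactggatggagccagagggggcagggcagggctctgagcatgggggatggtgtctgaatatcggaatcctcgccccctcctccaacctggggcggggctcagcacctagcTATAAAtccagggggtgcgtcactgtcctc

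Both strands were searched in all 12 promoters that RefSeq gives for the 10 genes and in 32851 promoters of the same length, where a search on both strands counts a promoter once. A CArG box occurred in 1 of the 12, that of Actc1, 47 bases before the start, and in 1.47% of all promoters. CATTCC occurred in 4 of the 12, those of Tnnt2, Tmod1, Tpm1 and Tnnc1, and in 12.6% of all. TATAAA occurred in 1 of the 12, that of Tnnt1, 30 bases before the start, and in 12.4% of all, and a MEF2 site in 0 of the 12 and in 2.92% of all. The motifs do not overlap in these promoters. Some windows lie wholly or partly inside the span of their gene, and the CATTCC matches of Tmod1 and Tpm1 fall inside it. A match describes the letters of the window and is not a binding site.

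Among the troponin genes, Tnnt2 encodes cardiac troponin T, and lies at chr1:135836315-135852268. Its level was 7609, 8185, 7556, 7244 and 7517 CPM in WT hearts 1 to 5 and 7869, 9472, 8668 and 9448 CPM in KO hearts 1 to 4. The groups overlapped only through KO heart 1, which lay below WT heart 2, and the mean was 7622 ± 345 in wild type and 8864 ± 761 in the labelled knockouts. The log2 fold change of 0.22 ± 0.13 (SE) did not pass the test (edgeR adjusted p = 0.176), nor did that with GC and length trends removed (0.11, edgeR adjusted p = 0.484).

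Tnni3 encodes the cardiac form of troponin I and lies at chr7:4518305-4522718. Its level was 3022, 3115, 2889, 2495 and 3728 CPM in WT hearts 1 to 5 and 4352, 4750, 4803 and 4951 CPM in KO hearts 1 to 4. Every labelled knockout heart lay above every wild-type heart, and WT heart 5 was the nearest of the wild-type hearts. Tnni3 rose by a log2 fold change of 0.63 ± 0.14 (SE, edgeR adjusted p = 0.00171). After the GC and length trends were removed the log2 fold change was 0.0058 and did not pass the test (edgeR adjusted p = 0.979). Its transcript has the highest GC content of the 10, at 55.81%, and genes of 54% to 56% GC had a median log2 fold change of 0.40. The gene shares exon sequence with Dnaaf3 on the same strand, so reads of the 2 genes could not be separated there.

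Tnnc1 encodes the calcium-binding subunit of slow skeletal and cardiac troponin, and lies at chr14:31208312-31211729. Its level was 1638, 1204, 1254, 1439 and 1365 CPM in WT hearts 1 to 5 and 2051, 2142, 2088 and 2181 CPM in KO hearts 1 to 4. The groups did not overlap, and the labelled knockouts varied less than the wild-type hearts (SD of 57.4 against 171). The log2 fold change was 0.62 ± 0.13 (SE, edgeR adjusted p = 0.00101), and 0.090 with GC and length trends removed (edgeR adjusted p = 0.526). The transcript has a GC content of 53.81%, in a range where the median log2 fold change was 0.26, and with 721 bases it is the shortest of the 10, followed by that of Tnni3 with 912 bases.

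Tnnt1, the slow skeletal form of troponin T, was present at low levels. It had 12.6, 17.0, 18.4, 12.3 and 12.3 CPM in WT hearts 1 to 5 and 15.4, 13.1, 18.9 and 23.05 CPM in KO hearts 1 to 4. The groups overlapped widely and the log2 fold change of 0.32 ± 0.19 (SE) did not pass the test (edgeR adjusted p = 0.159). It did pass without WT hearts 2 and 3, the 2 most shallowly sequenced, where it was 0.49 (edgeR adjusted p = 0.049). Once the GC and length trends were taken out, it stood at -0.14, of the opposite sign, and did not pass (edgeR adjusted p = 0.598). Tnnt1 lies next to Tnni3, with 2329 bases and no annotated gene between them.

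Tnni1, the slow skeletal and fetal form of troponin I, lies 25325 bases from Tnnt2, at chr1:135783033-135810989, with the gene Lad1 between them. It had 3, 3, 3, 3 and 4 reads in WT hearts 1 to 5 and 1, 1, 3 and 1 in KO hearts 1 to 4. These counts are at or near the limit of 3 reads that a count of 0 allows, so no fold change is given, and the gene was removed by the filter on low counts. It was called lower in the labelled knockouts only in the fits that kept such genes, edgeR without the filter (adjusted p = 0.0413), DESeq2 (adjusted p = 0.0312) and limma on unfiltered FPKM (adjusted p = 0.0454).

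Set against Tnni3 in the same library, Tnni1 took 0.0179% ± 0.0133 of the reads of the 2 genes for wild type and 0.00174% ± 0.000956 for labelled knockouts, and no labelled knockout heart reached the lowest wild-type share. The two-sided exact permutation p was 0.0159, the lowest value possible with 5 against 4 hearts, and 0.0317 adjusted over 4 such shares. With 1 to 4 reads of Tnni1 in every heart the share follows the Tnni3 reads of the library, so this p is not read as a difference in Tnni1. Without WT hearts 2 and 3 the difference shrank from -0.0162 to -0.0067 percentage points (adjusted exact permutation p = 0.114). With so few hearts the smallest p of the exact test lies above 0.05, so it could not pass there. The single hearts are not resolved by this depth: the 95% Wilson interval of WT heart 1 is 0.00151% to 0.0131% and that of KO heart 3 is 0.00107% to 0.00929%, and both cover counting error only. The WT values above 0.03% came from hearts 2 and 3, where they were 3 of 8984 and 3 of 9758 reads. The share of Tnnt1 in the reads of Tnnt1 and Tnnt2 was 0.190% ± 0.0346 in wild type and 0.198% ± 0.0450 in the labelled knockouts, and no difference was detected (two-sided exact permutation p = 0.683, adjusted p = 0.683).

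**Figure D2:**
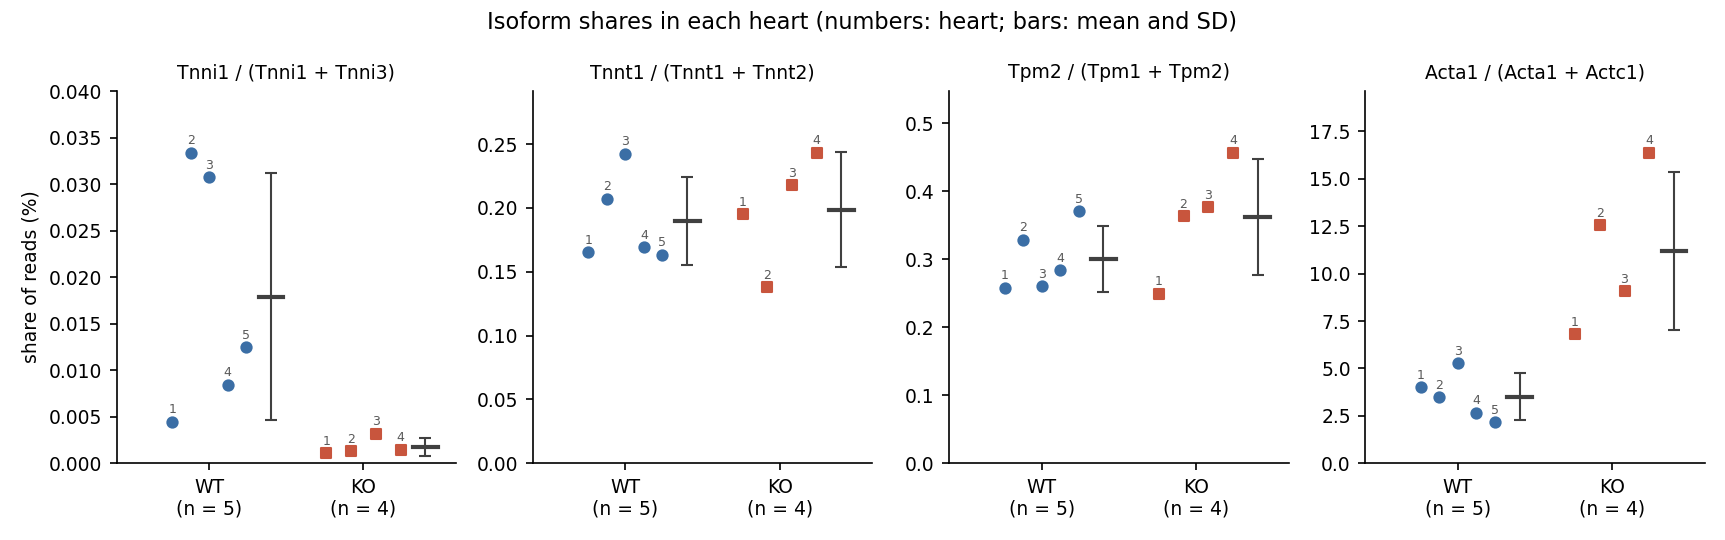
Share of the minor form in the reads of each pair of genes, in percent, for each heart, with the axis of each panel starting at 0. Circles are wild-type hearts, squares are labelled knockouts, and bars give the mean and SD. The Acta1 share is higher and the Tnni1 share lower in the labelled knockouts without overlap, the Tnni1 share resting on 1 to 4 reads per heart, while the Tnnt1 and Tpm2 shares overlap.

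Tropomyosin showed no detected difference in the edgeR fit of the counts over all 9 hearts. Tpm1 encodes alpha-tropomyosin, the main form in the rodent ventricle, and lies at chr9:67022590-67049672. It had 8140, 8718, 9288, 8170 and 8428 CPM in WT hearts 1 to 5 and 8125, 8494, 8778 and 8855 CPM in KO hearts 1 to 4. The 2 ranges largely coincided, and the log2 fold change was 0.0024 ± 0.13 (SE, edgeR adjusted p = 0.990). Once the GC and length trends were taken out, it stood at -0.0063 (edgeR adjusted p = 0.974). Tpm2, the gene of beta-tropomyosin, had 21.1, 28.8, 24.3, 23.2 and 31.3 CPM in WT hearts and 20.3, 31.0, 33.2 and 40.7 CPM in KO hearts. KO heart 1 was the lowest of all 9 hearts and KO heart 4 the highest, and the log2 fold change of 0.29 ± 0.18 (SE) did not pass the test (edgeR adjusted p = 0.196). Without KO heart 1 it was 0.45 and passed (edgeR adjusted p = 0.0236), and after removal of both trends it was -0.17 (edgeR adjusted p = 0.462). Tpm2 took 0.30% ± 0.0484 of the reads of both tropomyosin genes in wild type and 0.362% ± 0.0855 in the labelled knockouts (two-sided exact permutation p = 0.238, adjusted p = 0.317).

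Cardiac actin, encoded by Actc1 at chr2:114047282-114052875, was the most variable of the abundant genes among the labelled knockouts. It had 9519, 8832, 8539, 9644 and 8893 CPM in WT hearts 1 to 5 and 10969, 7915, 9345 and 6640 CPM in KO hearts 1 to 4. KO heart 1 was the highest and KO heart 4 the lowest of the 9 hearts, and the SD was 1864 CPM against 474 in wild type. The log2 fold change of Actc1 was -0.060 ± 0.16 (SE, edgeR adjusted p = 0.770). Once the GC and length trends were taken out, it stood at -0.31 and did not pass (edgeR adjusted p = 0.126). Acta1, the skeletal form of alpha-actin and the partner of Actc1 in the sarcomere, had 399, 319, 475, 263 and 195 CPM in WT hearts 1 to 5 and 800, 1136, 932 and 1301 CPM in KO hearts 1 to 4. Acta1 rose by a log2 fold change of 1.66 ± 0.22 (SE, edgeR adjusted p = 4.01e-05), and by 1.06 with GC and length trends removed (edgeR adjusted p = 8.59e-04).

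Acta1 took 4.02%, 3.49%, 5.27%, 2.66% and 2.15% of the reads of both alpha-actin genes in WT hearts 1 to 5 and 6.80%, 12.5%, 9.07% and 16.4% in KO hearts 1 to 4. All labelled knockout hearts lay above all wild-type hearts, at means of 11.2% ± 4.19 against 3.52% ± 1.22 (two-sided exact permutation p = 0.0159, adjusted p = 0.0317). The 2 genes have closely similar coding sequences, and the share depends on how reads common to them were assigned.

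At the pointed end, Lmod2 encodes leiomodin 2 and lies at chr6:24597771-24605414. Its level was 1078, 1791, 1893, 1370 and 1297 CPM in WT hearts 1 to 5 and 617, 763, 601 and 594 CPM in KO hearts 1 to 4. All labelled knockout hearts lay below all wild-type hearts, and WT hearts 2 and 3, the shallowest, were the highest. Lmod2 fell by 1.21 ± 0.17 (SE) on the log2 scale (edgeR adjusted p = 6.55e-05), and by 1.15 with GC and length trends removed (edgeR adjusted p = 1.78e-04). Without WT hearts 2 and 3 it fell by 0.96 (edgeR adjusted p = 5.33e-04). The transcript has a GC content of 48.63%, the lowest of the 10, in a range of GC where the median log2 fold change was -0.077.

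Tmod1 encodes tropomodulin 1 and lies at chr4:46038940-46116032. Its level was 146, 111, 110, 136 and 140 CPM in WT hearts 1 to 5 and 187, 199, 226 and 220 CPM in KO hearts 1 to 4. The groups did not overlap, and WT hearts 2 and 3, highest for Lmod2, were lowest for Tmod1. Tmod1 rose by a log2 fold change of 0.69 ± 0.13 (SE, edgeR adjusted p = 4.37e-04), and by 0.58 with GC and length trends removed (edgeR adjusted p = 0.00108). Without WT hearts 2 and 3 it rose by 0.55 (edgeR adjusted p = 0.00387). The gene shares exon sequence with Tstd2 on the opposite strand, and as the libraries did not keep strand, reads there could belong to either.

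**Figure D3:**
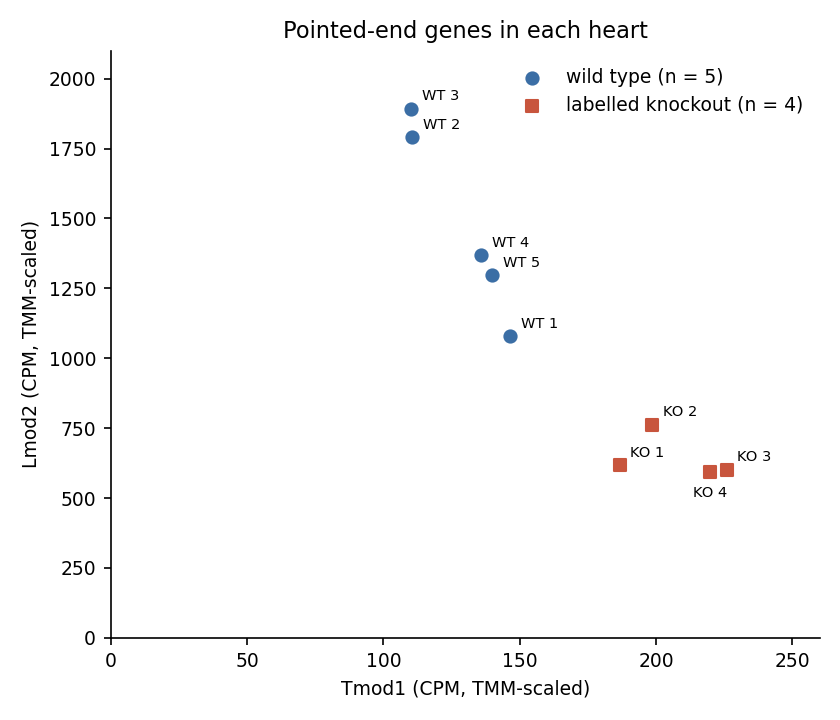
Lmod2 (vertical axis) against Tmod1 (horizontal axis) in each heart, both in CPM after TMM scaling on linear axes from 0. Circles are the 5 wild-type hearts and squares the 4 labelled knockouts, each with its heart number. The labelled knockouts lie at 594 to 763 CPM of Lmod2 and 187 to 226 CPM of Tmod1, apart from the wild-type hearts on both axes.

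The reads of Lmod2 per read of Tmod1, a ratio within a library that no scaling factor touches, were 7.36, 16.2, 17.2, 10.1 and 9.27 in WT hearts 1 to 5 and 3.30, 3.84, 2.66 and 2.70 in KO hearts 1 to 4. The lowest wild-type heart was above the highest labelled knockout heart. Per length, in FPKM, the ratio was 17.2 ± 5.99 in wild type and 4.62 ± 0.811 in the labelled knockouts. Among wild-type hearts the ratio was highest in hearts 2 and 3, which also had the largest shares of mitochondrial reads (58.2% and 55.9%). Whether the ratio follows that share was not tested. This ratio was chosen after its values were seen and was not tested.

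Ratios within the troponin complex, per length and likewise chosen after their values were seen, moved less. Tnni3 stood at 0.636 ± 0.091 of the FPKM of Tnnt2 in wild type and at 0.845 ± 0.040 in the labelled knockouts, without overlap. Tnnc1 stood at 0.359 ± 0.053 of Tnnt2 and at 0.472 ± 0.030, also without overlap. Tnni3 over Tnnc1, in contrast, was 1.80 ± 0.355 and 1.79 ± 0.063, and the 2 groups overlapped, as they did for Tpm1 over Actc1 (1.12 ± 0.118 and 1.21 ± 0.296). The ratios keep the trends with GC content and length. Transcript GC content is 55.81% for Tnni3 and 53.81% for Tnnc1, against 50.84% for Tnnt2. With both trends removed, the log2 fold changes were 0.0058 for Tnni3, 0.090 for Tnnc1 and 0.11 for Tnnt2.

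**Figure D4:**
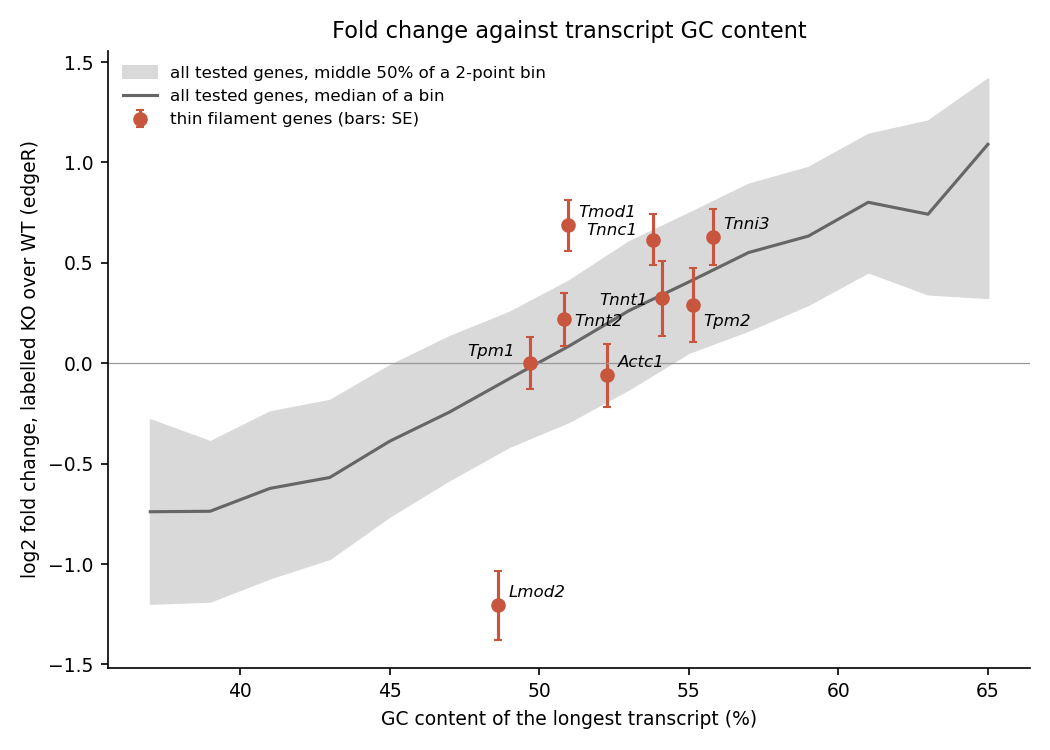
Log2 fold change, labelled knockout over wild type by edgeR, against the GC content of the longest transcript in percent. The line and band give the median and the middle 50% of all tested genes in bins of 2 percentage points, and the points are the 9 tested thin filament genes with bars of 1 SE. Tnni3 lies within the band and Tnnc1 at its upper edge, whereas Lmod2 lies below the band and Tmod1 above it.

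The order of the levels is given per length, in the FPKM values that the authors deposited. In wild type, Tpm1 (6928 ± 1231), Actc1 (6336 ± 1698) and Tnnt2 (6314 ± 1241) were highest and overlapped one another. Tnni3 (3991 ± 813) and Tnnc1 (2315 ± 788) followed and overlapped each other, then Lmod2 (668 ± 87.7), Tmod1 (42.3 ± 13.2), Tnnt1 (15.9 ± 2.25), Tpm2 (10.9 ± 1.5) and Tnni1 (0.474 ± 0.285). In the labelled knockouts Tnnt2 (10913 ± 536) and Tpm1 (10375 ± 247) overlapped at the top, above Tnni3 (9207 ± 137) and Actc1 (8991 ± 2377), which overlapped, Tnnc1 (5140 ± 149), Lmod2 (443 ± 59.9), Tmod1 (96.5 ± 5.28), Tnnt1 (29.1 ± 6.10), Tpm2 (19.8 ± 4.42) and Tnni1 (0.120 ± 0.0677). Acta1, at 219 ± 85.8 in wild type, stood below Lmod2, and at 1015 ± 169 in the labelled knockouts it stood above it.

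FPKM shifted as a whole between the groups, with a median log2 difference of 0.44 over all genes on the scale of log2(FPKM + 1). On that scale limma called 7 of the 9 tested genes higher and 1 lower, where it called 53.3% of all 12637 genes, 47.2% higher and 6.09% lower. Groups did not overlap in 8 of the 9, against 45.6% of all genes. Lmod2 was the lower gene (-0.59 ± 0.18, limma adjusted p = 0.0178), against the direction of the shift, and Actc1 the gene not called (0.51 ± 0.28, limma adjusted p = 0.149). After the median of each heart was set equal, 3 genes were higher (Tmod1, Tnni3 and Tnnc1) and Lmod2 lower, as in the counts, against 53.9% of all genes, 25.4% higher and 28.4% lower.

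**Figure D5:**
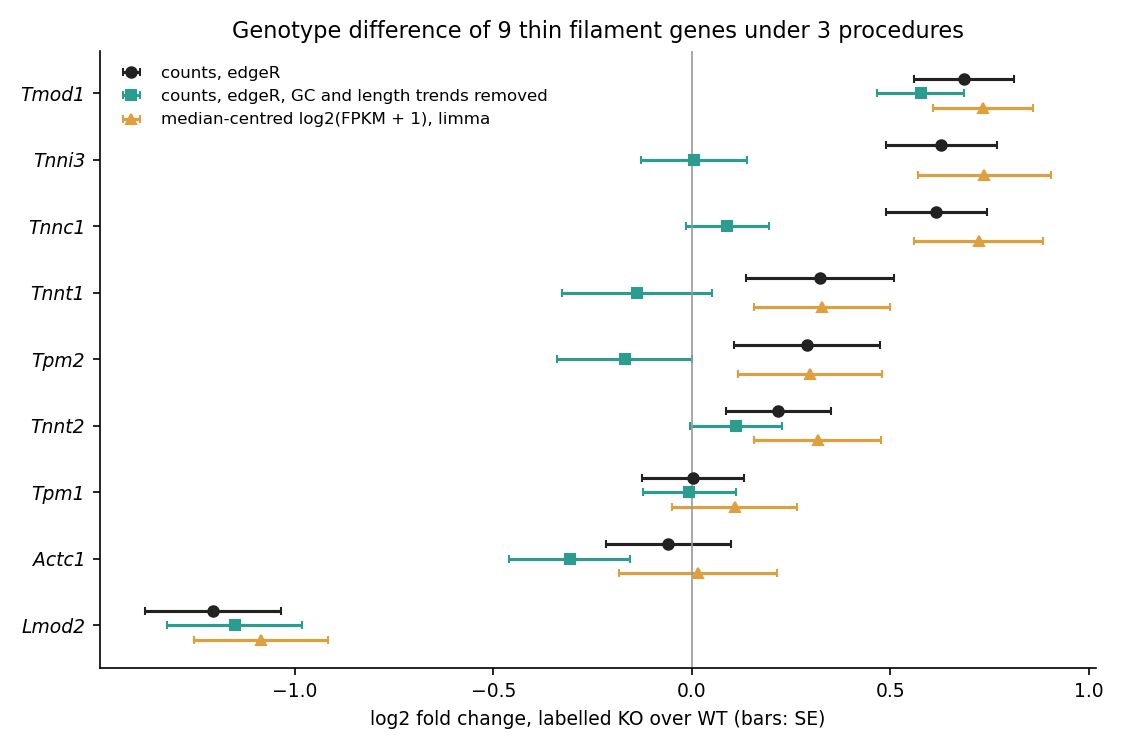
Log2 fold change, labelled knockout over wild type, of the 9 tested genes, with bars of 1 SE. Circles are the edgeR fit of the counts, squares the same fit with GC and length trends removed, and triangles the limma fit of median-centred log2(FPKM + 1). Lmod2 and Tmod1 keep their distance from 0 in all 3 fits, while Tnni3 and Tnnc1 lie near 0 with the trends removed.

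Other genes of the filament and its assembly were taken from lists chosen with earlier results of these data known. The share of all tested genes called by edgeR, against which each count is to be read, was 26.2% higher and 25.2% lower, and 18.6% and 19.8% with trends removed. Of 5 other actins, 2 rose and 0 fell, with a median log2 fold change of 0.54 and the same counts with trends removed. They were Acta1 and the cytoplasmic gamma-actin gene Actg1, which rose by a log2 fold change of 0.69 ± 0.14 (edgeR adjusted p = 9.98e-04) and by 0.43 with trends removed (edgeR adjusted p = 0.0160). That call was lost when WT hearts 2 and 3 were left out as well (0.38, edgeR adjusted p = 0.0553). Of 5 other tropomyosins and fast skeletal troponins, 3 were tested, 0 rose and Tpm4, which encodes a nonmuscle tropomyosin, fell by 0.74 ± 0.14 on the log2 scale (edgeR adjusted p = 4.82e-04), and by 0.45 with trends removed (edgeR adjusted p = 0.0381). Without WT hearts 2 and 3 and with trends removed it was at -0.36 and did not pass (edgeR adjusted p = 0.143).

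Of 5 other tropomodulins and leiomodins, all tested, 1 rose and 1 fell, a share no larger than the 26.2% and 25.2% of all genes. Lmod3, which nucleates actin in skeletal muscle, fell by 0.76 ± 0.19 on the log2 scale (edgeR adjusted p = 0.00405), and by 0.65 with trends removed (edgeR adjusted p = 0.0189), although its groups overlapped. Without WT hearts 2 and 3 and with trends removed it was at -0.39 and did not pass (edgeR adjusted p = 0.138). Tmod4, the skeletal muscle tropomodulin, rose by a log2 fold change of 0.54 ± 0.16 (edgeR adjusted p = 0.0102), and with trends removed was at 0.35 and did not pass the test (edgeR adjusted p = 0.0616). With trends removed 1 gene of the list was still called higher, against 18.6% of all genes, but this was Tmod3 (0.69, edgeR adjusted p = 0.00104). Before removal Tmod3 stood at 0.068 (edgeR adjusted p = 0.667). Tmod3 is named for this change of calls, after its values were seen.

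Of 18 genes listed as factors of filament length or assembly, all tested, 10 fell and 2 rose by edgeR, against 25.2% and 26.2% of all genes. Their median log2 fold change was -0.44. The list is wider than the thin filament, as it holds Tnni3k and the myosin chaperone gene Unc45b, which is among the 2 that rose. With trends removed 6 fell and 2 rose, against 19.8% and 18.6%, and by FPKM 4 were called lower and 5 higher, against 6.09% and 47.2%. Pfn1 and Pfn2, which encode profilins that bind actin monomers, fell by 1.15 ± 0.17 and 1.35 ± 0.20 on the log2 scale (edgeR adjusted p = 1.02e-04 and 8.20e-05), and by 1.83 and 1.53 with trends removed. Cfl2, the muscle cofilin that severs actin filaments, fell by 0.99 ± 0.11 (edgeR adjusted p = 9.99e-06), and with trends removed was at -0.20 and did not pass the test (edgeR adjusted p = 0.115). Unc45b, a myosin chaperone, rose by a log2 fold change of 0.99 ± 0.13 (edgeR adjusted p = 3.56e-05), and by 0.60 with trends removed.

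Of 12 genes in the control of muscle actin transcription, 6 fell and 1 rose by edgeR, against 25.2% and 26.2% of all genes, with a median log2 fold change of -0.31. With trends removed 6 fell and 0 rose, against 19.8% and 18.6%, but they were not the same genes, since Mef2a and Mef2c were no longer called and Srf and Mkl1 were. Srf encodes serum response factor, the factor of the CArG box, and stood at 0.20 ± 0.18 (edgeR adjusted p = 0.366) and, with trends removed, at -0.72 (edgeR adjusted p = 5.63e-04). Srf, Mkl1 and Mef2a are named for this change of calls, after their values were seen. Tead1, which encodes a factor of the CATTCC motif, fell by 1.18 ± 0.13 on the log2 scale (edgeR adjusted p = 9.80e-06), and by 0.82 with trends removed. The T-box factor gene Tbx5 fell by 0.80 ± 0.15 (edgeR adjusted p = 4.38e-04), and by 0.95 with trends removed. Mef2c and Nkx2-5, which encode cardiac transcription factors, stood at -0.78 ± 0.15 and 1.14 ± 0.21 (edgeR adjusted p = 6.32e-04 and 4.33e-04). With trends removed they were at -0.086 and 0.095 and did not pass the test (edgeR adjusted p = 0.588 and 0.666).

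By the likeness of their deviations from the group means over the 9 hearts, the tested genes of at least 10 CPM nearest to Tnni3 were Npepl1 (Pearson r = 0.93), Zfp526 (0.92) and Gdpd5 (0.92). These values are a description over hearts that differ in depth and GC slope. Tnni1, below the filter, was given no such neighbours.

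Markers of other cell types also differed between the groups, and their part in the results was not tested. Single markers are named here after their values were seen, and the counts are to be read against the 26.2% of all tested genes called higher by edgeR and the 25.2% called lower. Of 12 skeletal muscle markers, 7 were tested, 3 rose and 0 fell, and the summed level of all 12 was 731 to 1228 CPM in wild type and 1510 to 2075 CPM in the labelled knockouts. The 3 were the fast myosin genes Myh2 (1.23 CPM in wild type and 14.3 CPM in the labelled knockouts on average, 14.1-fold, edgeR adjusted p = 1.27e-04) and Myh4 (0.467 and 1.6 CPM, 3.39-fold, edgeR adjusted p = 0.00311), and the creatine kinase gene Ckm, which heart muscle also expresses and which made up most of the sum (947 and 1647 CPM, edgeR adjusted p = 9.34e-04). In wild type Myh2 had 0 to 29 reads per heart and Myh4 had 1 to 15, so their fold changes rest on few reads. Group means of the fast troponin genes Tnnt3 and Tnnc2, of Mylpf, of Pvalb and of Myh1 were under 1 CPM. Myh1 nevertheless stood at 3.06 to 22.8 FPKM in single hearts, so the deposited tables differ on it, as they do on Myh6. Myh6 stood at 0 FPKM in KO hearts 1 and 3, where it had 845850 and 884771 reads.

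Of 5 atrial markers, 2 were tested, 1 rose and 0 fell, and the sum was 23.7 to 43.4 CPM in wild type and 134 to 478 CPM in the labelled knockouts. Most of it came from Nppa, the atrial natriuretic peptide (34.9 and 270 CPM on average, edgeR adjusted p = 7.98e-06), while group means of Myl7, Sln and Bmp10 were under 1 CPM. Of 8 ventricular markers, 4 rose and 1 fell. Of 7 smooth muscle markers, 1 rose and 0 fell, with sums of 389 to 629 CPM and 629 to 853 CPM. Of 7 fibroblast markers, 3 rose and 2 fell, with Col3a1, a collagen gene, 2.30-fold higher (edgeR adjusted p = 5.18e-04) and the proteoglycan gene Lum at a log2 fold change of -2.12 (edgeR adjusted p = 5.52e-05), and sums of 530 to 682 CPM and 571 to 1041 CPM. Of 6 endothelial markers, 1 rose and 2 fell (701 to 848 and 607 to 720 CPM), and of 6 immune markers tested, 2 rose and 3 fell (76.6 to 98.0 and 88.4 to 117 CPM). With GC and length trends removed, 3 skeletal muscle markers rose and 1 fell, against 18.6% and 19.8% of all genes. The same counts were 1 and 0 for atrial, 3 and 1 for ventricular and 0 and 0 for smooth muscle markers. They were 1 and 1 for fibroblast, 1 and 1 for endothelial and 0 and 2 for immune markers.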

How the data were processed

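Single-end, poly(A)-selected RNA-seq libraries that do not keep strand were made from ventricular apices, per the labels' protocols. The authors deposited read counts, 1 row per gene and 1 column per heart, and FPKM values of the same 9 hearts. Per the submitters' processing notes reads were handled with HTSeq, Cufflinks 2.1, TopHat2 2.0.10, TopHat, Bowtie2, edgeR and DESeq, on build mm10, with no role given for each. Not given in the sources used here are the annotation, the strand setting, the reads over which FPKM was scaled, and whether reads common to similar genes such as Acta1 and Actc1 were counted.

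Counts were used as deposited. Genotypes were compared over all genes in edgeR 4.0.16 (R 4.3.3) with TMM factors, filterByExpr (10 reads as the minimum in a group's worth of hearts, 15 summed), quasi-likelihood F tests and Benjamini-Hochberg adjustment at 0.05. Fold changes give labelled knockouts relative to wild type. FPKM was tested with limma 3.58.1 on log2(FPKM + 1) where the mean FPKM reached 0.5. The added 1 shrinks the fold changes of weakly expressed genes. GC and length trends were removed as lowess offsets (span 0.3) for the 99.2% of tested genes with a GENCODE vM21 transcript. Shares of reads were compared with two-sided exact permutation tests in SciPy 1.17.1. Total reads ranged from 4415183 to 20827699 per heart, which sets the precision of low genes such as Tnni1. Alternatives were other size factors, filters, DESeq2 1.42.0, limma-voom, mitochondrially encoded genes left out, hearts left out, a replicate block, and those chosen after seeing the data: nuclear reads without scaling factors, the correction without both shallow wild-type hearts, and median-centred FPKM. The edgeR fit without removal of trends was tested on simulated counts that held no GC or length trend. The simulation therefore does not check the removal of those trends.

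The genes and lists were chosen with earlier results of these data known. Named were the 10 genes, Acta1, up to 4 called genes with the smallest p from each list, and the 3 genes most like Tnni3. The labels give no litter, sex or batch, and p-values measure the spread between these hearts only. The targeted gene is not reported here, so the genotype rests on the labels. Coordinates and promoters are from RefSeq on GRCm38.p6.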

Additional observations from a re-analysis of the deposited data

Results flagged for a closer look

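Among 48 groups of 4 or 5 hearts, 1 heart stood apart from the rest of its group in 2, where chance gives about 1 in 20. KO heart 3 had a Tnni1 level of 0.220 FPKM, above the other labelled knockouts, which corresponds to 3 reads against 1 in each of the other labelled knockouts. KO heart 2 had a Lmod2 level of 763 CPM, above the other labelled knockouts at 594 to 617 CPM and still below the lowest wild-type heart.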

How the results depend on the processing

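The Lmod2 fall and the Tmod1 rise passed the test in all 22 alternatives run on counts, with log2 fold changes of -1.31 to -0.87 and 0.47 to 0.74 (edgeR, DESeq2 or voom adjusted p of at most 6.53e-04 and 0.00702). With GC and length trends removed, 1 gene was called higher in place of 3, and so with the replicate block or without WT hearts 2 and 3 added, where 3514 and 4131 genes were called over the whole table in place of 6503. Tnni1 brought the genes called lower to 2 with no filter, with DESeq2 and with unfiltered FPKM. Tnnt2 joined the genes called higher in DESeq2 and voom (0.24 and 0.23, adjusted p = 0.0335 and 0.0246). Median-centred FPKM called 3 genes higher in place of 7. Nuclear reads without scaling factors moved the median of all genes to -0.12 and changed no call among the 10 genes. The share of Tnni1 differed by -0.0195 to -0.0123 percentage points with 1 heart left out and by -0.0067 without WT hearts 2 and 3, and that of Acta1 by 5.95 to 9.15 and by 8.26. None of these passed after adjustment (0.114 for both without WT hearts 2 and 3), since fewer hearts raise the smallest p the exact test can give. With 1 heart left out, 3 to 4 genes were called higher and 1 lower.

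The replicate numbers shared by the groups did not pair the hearts: same-numbered hearts deviated together with r of -0.11, 0.041, -0.065 and -0.26, and not every heart was most like its own number. With the replicate block 5030 genes were called in place of 6503, and of the 10 genes 3 were higher and 1 lower, as without it. Of the other named genes Tmod4 lost its call with the block (0.54, edgeR adjusted p = 0.0622), and Tpm4 with the block and trends removed (-0.43, edgeR adjusted p = 0.0783).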
